A study of Mus musculus with 6 samples.

Results

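The insulin-like growth factor (IGF) ligands, receptors and binding proteins were examined in mouse cortical bone cultured with or without parathyroid hormone (PTH). The family was defined by gene symbol, as Igf1, Igf2, Igf1r, Igf2r and Igfbp2, Igfbp3, Igfbp4, Igfbp5, Igfbp6 and Igfbp7, and every array probe carrying one of these symbols was kept. This gave 10 genes and 20 probes, of 31508 gene symbols and 45281 probes on the array. Tibiae and femurs came from C57BL6 mice, 3 months old by the sample labels. Cutting, flushing and digestion with collagenase and trypsin were used to remove muscle, growth plate, marrow and surface cells. The aim was tubes of cortical bone with osteocytes in their matrix. Markers of neutrophils, red cells and osteoclasts were still measured, as given below, so the values are not those of osteocytes alone. All tubes were cultured overnight in medium with serum. They then received Pth 1-34, the active amino-terminal fragment of the hormone, at 250 nM for 24 hours (3 arrays, PTH replicates 1 to 3) or no treatment for the same time (3 arrays, control replicates 1 to 3). RNA of several mice was pooled for each preparation, so an array does not measure a single animal. The labels do not state that replicates were separate cultures, and p-values measure the spread between these arrays, which may be technical.

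IGF1 and IGF2 are secreted growth factors that signal mainly through the IGF1 receptor, a receptor tyrosine kinase. IGF2R, which is also the cation-independent mannose-6-phosphate receptor, takes up IGF2 and sends it to lysosomes. In serum and tissue most IGF is held by binding proteins, which lengthen its life and control its access to the receptor, and which are themselves cut by proteases. Bone matrix is a large store of IGFs and IGFBP5, and PTH is long known to act on IGF production in bone cells.

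Values below are log2 signals after background correction and quantile normalization, and only probes with a detection p under 0.05 on 3 or more of the 6 arrays were tested. A gene was represented by its brightest tested probe. It was called where the adjusted p (limma, adjusted over all 16214 probes tested) was under 0.05 and the fold change at least 1.5. Normalized log2 values can be compared between arrays for the same probe, not between probes. The median signal per array was between 111 and 129, and between 34.2% and 38.4% of all probes were above background. The number of arrays, 3 in each group, limits the precision.

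Of the 10 genes, 9 had a tested probe, and 16 of the 20 probes were tested. None of the 9 genes was called by its brightest probe, where 1.73% of all 11979 genes tested were called (82 or 0.685% higher with PTH and 125 or 1.04% lower, against 63 higher and 41 lower after median scaling of the arrays). At an unadjusted limma p under 0.05, without a fold change minimum, 3 of the 9 genes passed (Igfbp5, Igf1 and Igf1r), beside 14.9% of all genes. Among probes 2 of the 16 were called, both for Igfbp5 and both higher with PTH, beside 1.61% of all probes called in either direction and 0.617% called higher. The PTH and control arrays did not overlap for 3 of the 9 genes, beside 21.9% of all genes. When a gene counted as called by any of its probes, a rule added after the data were seen, Igfbp5 was the 1 called member, beside 1.95% of all genes (0.776% higher). By brightest probe, Igfbp5 lay higher on every PTH array (11.1% of all genes did so), and Igf1 and Igf1r lay lower on every PTH array (10.8%). The median log2 difference of the 9 genes was -0.23, with 8 of them below 0, and that of all genes tested was 0.0053. This count depends on the probe used. With the mean of all tested probes Igf2r (0.024) and Igfbp3 (0.074) lay above 0, and Igfbp7 (-0.0043) was close to 0.

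The promoters of the 3 genes whose arrays did not overlap by brightest probe are shown, since the description below turns on them, although none of the 3 was called by that probe. Each runs from 250 bases before to 50 bases after the RefSeq transcript start (GRCm38.p6), and capitals mark the motif named in the next paragraph.
Igfbp5, chr1:72874816-72875115, minus strand: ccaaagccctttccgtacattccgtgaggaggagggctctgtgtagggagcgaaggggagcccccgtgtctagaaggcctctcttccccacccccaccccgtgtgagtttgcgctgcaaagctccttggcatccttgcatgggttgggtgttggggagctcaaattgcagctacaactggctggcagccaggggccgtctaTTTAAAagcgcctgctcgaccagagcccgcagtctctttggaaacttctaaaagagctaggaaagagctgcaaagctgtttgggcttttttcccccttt
Igf1, chr10:87860861-87861160, plus strand: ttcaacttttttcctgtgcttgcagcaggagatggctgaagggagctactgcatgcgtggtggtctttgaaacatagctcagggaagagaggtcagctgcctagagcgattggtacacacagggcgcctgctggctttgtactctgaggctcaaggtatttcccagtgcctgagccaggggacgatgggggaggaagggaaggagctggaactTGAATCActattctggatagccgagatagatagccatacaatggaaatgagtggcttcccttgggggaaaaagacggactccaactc
Igf1r, chr7:67952007-67952306, plus strand: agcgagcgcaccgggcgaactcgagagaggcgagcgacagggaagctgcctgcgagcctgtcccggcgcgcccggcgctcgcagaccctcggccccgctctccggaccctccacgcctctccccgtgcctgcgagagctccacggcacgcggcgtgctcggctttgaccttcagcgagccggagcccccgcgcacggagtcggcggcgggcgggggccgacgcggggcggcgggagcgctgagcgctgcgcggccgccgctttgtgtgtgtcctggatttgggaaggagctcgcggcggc

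All 10 members matched the RefSeq promoter table, with 14 windows of 300 bases because Igf2 has 4 and Igfbp2 has 2. Each window was searched on both strands for the cAMP response element TGACGTCA, its shorter core TGACG, the AP-1 site TGANTCA and the TATA box TATAAA, the first 3 being sites of factors that act downstream of PTH receptor signaling. The full cAMP response element was in none of the 14 windows, while 1.79% of all 32851 mouse windows hold it. The Igf1 window held an AP-1 match beginning at position -37 from the start, and 7.81% of all windows hold such a match. That window lies inside the gene, which begins upstream at 87858265 on chromosome 10, and the region around that position was not searched. The Igfbp5 window held none of these 4 motifs but had TTTAAA, letters searched for after this sequence had been seen, at position -49, as 13.2% of all windows do on either strand. The Igf1r window held no motif searched and was 76.0% G and C, compared with 56.3% for Igfbp5 and 52.3% for Igf1. The core TGACG, which the full element contains, was found in 2 windows of Igf2 and in the window of Igf2r, where it stood 3 times (20.8% of all windows hold it). TATAAA was in the windows of Igfbp4 and Igfbp6 (13.6%), and a second AP-1 match lay in 1 of the Igfbp2 windows. These are matches of letters, and none was tested for binding.

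Igfbp5 was the only member with a called probe. It encodes a binding protein that is abundant in bone matrix and is made by osteoblasts. The gene lies on chromosome 1, 72858065-72874865 (GRCm38.p6), next to Igfbp2 and separated from it by 5590 bases. Its 3 probes all read higher on each PTH array than on any control array, as 10.3% of all probes tested did.

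On probe ILMN_1254358 the normalized log2 signal was 12.60, 12.63 and 12.53 on control replicates 1 to 3, and 13.46, 13.40 and 13.40 on PTH replicates 1 to 3. The mean went from 12.59 ± 0.052 to 13.42 ± 0.035 (SD, n = 3 each). The difference was 0.83 ± 0.11 (SE), a 1.78-fold rise with a 95% interval of 0.57 to 1.10 on the log2 scale (limma, adjusted p = 0.0153). The gap between the groups was many times the spread within either.

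On probe ILMN_2964324 the values were 12.31, 12.22 and 12.10 for control and 13.02, 12.92 and 12.83 for PTH. The probe rose 1.64-fold, by 0.72 ± 0.13 (SE) on the log2 scale with a 95% interval of 0.43 to 1.01 (limma, adjusted p = 0.0372). The third and brightest probe, ILMN_2682613, read 13.22, 13.26 and 13.02 for control and 13.84, 13.79 and 13.49 for PTH. Again no PTH array reached down to a control array, but the arrays of each group were more widely spread. Its difference of 0.54 ± 0.14 (SE), or 1.45-fold, was below the fold change minimum and missed the threshold (limma, adjusted p = 0.137). Averaged over the 3 probes, Igfbp5 was called, with a difference of 0.70 ± 0.11 (SE) and an adjusted p of 0.0261 (limma). With probes averaged in this way 263 genes of the whole array were called, 114 of them higher. Among the 16214 probes tested, ranked from the largest rise, the 3 probes stood at 109, 200 and 520.

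**Figure D1:**
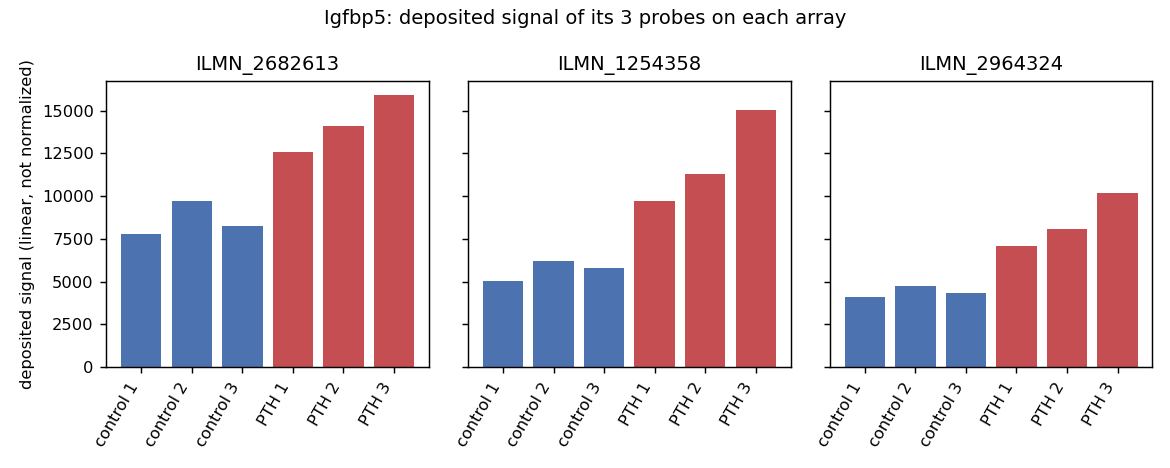
Signal intensity of the 3 Igfbp5 probes on each array as deposited (linear scale, not normalized), with a bar per array and the PTH arrays in red. Control arrays lie between 4077 and 9709 and PTH arrays between 7058 and 15936, with the PTH arrays above the control arrays on each probe.

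On Igfbp5 the groups were also apart in the signals as deposited, before any normalization. Probe ILMN_1254358 read 5020, 6232 and 5782 without the hormone, against 9686, 11291 and 15049 with it, as the plot of deposited Igfbp5 signal shows. PTH replicate 3, the highest here, was also the array with the highest mean signal over all probes, 429 against 298 to 349 on the other 5. Without that array the normalized difference on this probe was 0.85 (limma, adjusted p = 0.0447).

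The size of the Igfbp5 difference moved little when arrays were left out, but its call did not hold. Leaving out any 1 array gave 0.81 to 0.85 on ILMN_1254358, with adjusted p between 0.0527 and 0.0795 (limma) without control replicate 1, 2 or 3 or PTH replicate 1 or 2. On ILMN_2964324 the differences were 0.66 to 0.77 and the adjusted p between 0.0620 and 0.130 without each of the 6 arrays in turn. With 2 arrays left in a group, 50 to 95 genes of the whole array were called in place of 207.

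Whether the 3 probes of Igfbp5 responded alike was compared within each array, as the log2 ratio between a pair of probes. The ratio of ILMN_2682613 to ILMN_1254358 was lower with PTH by 0.30 and that of ILMN_2682613 to ILMN_2964324 by 0.18, while that of ILMN_1254358 to ILMN_2964324 was higher by 0.12. All 3 pairs separated the groups completely, which gives the smallest p that an exact two-sided permutation test of 3 against 3 arrays can reach, 0.1 (0.225 after adjustment over the 9 probe pairs of the family compared). This test cannot reach the 0.05 level with 3 arrays in a group, and no other test of the ratios was run.

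**Figure D2:**
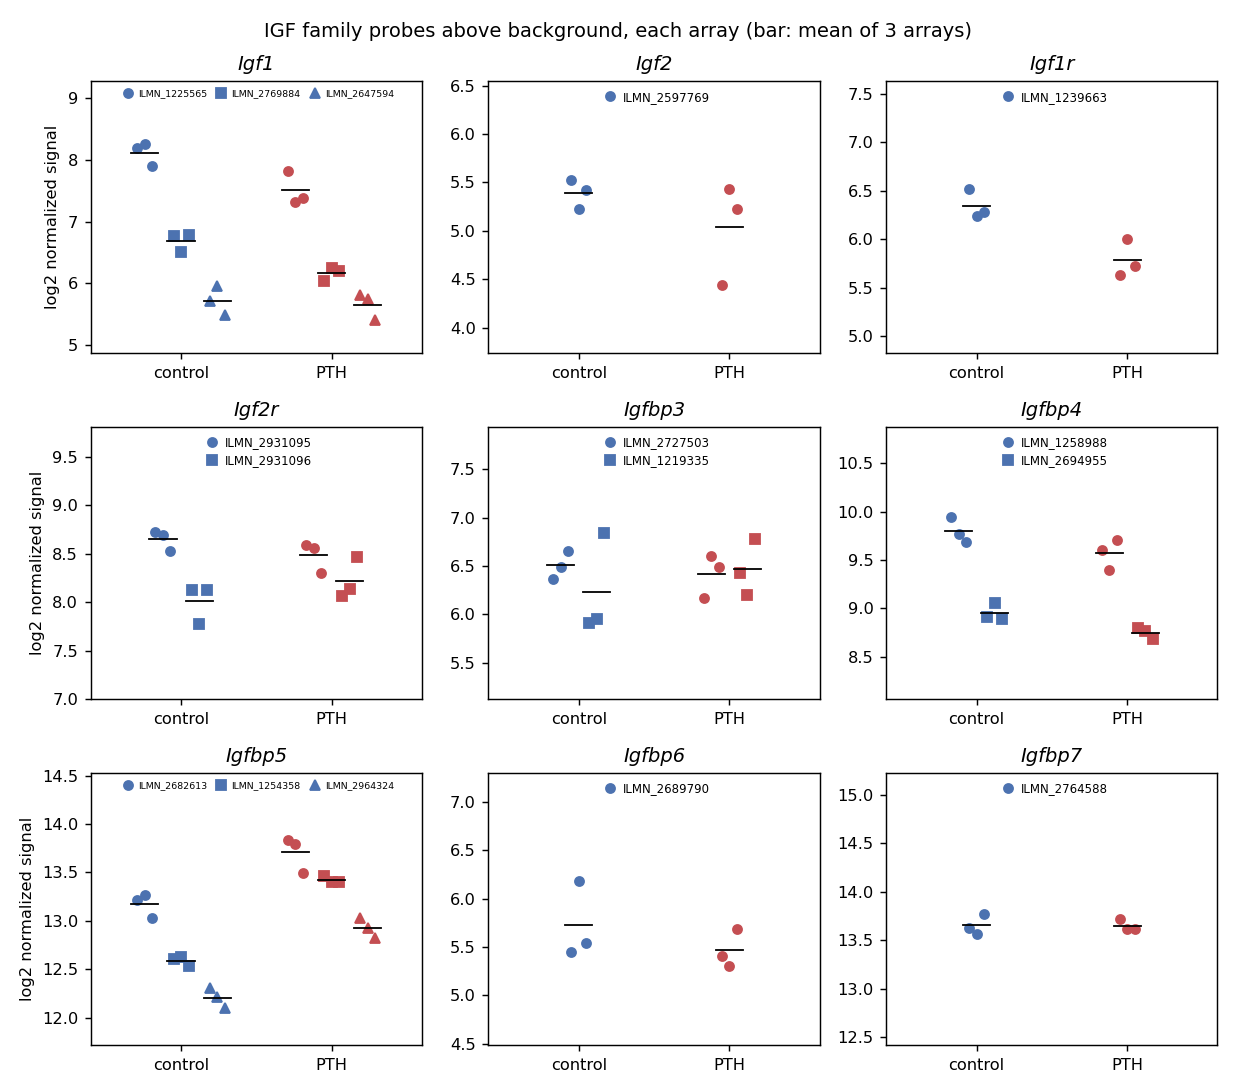
Normalized log2 signal of every tested probe of the 9 measured genes on each of the 6 arrays, with a point per array and a bar at the group mean. The 3 Igfbp5 probes are higher on all PTH arrays, 2 of the 3 Igf1 probes and the Igf1r probe are lower on all PTH arrays, and Igfbp7 stays between 13.56 and 13.77 on all 6 arrays.

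Igf1, the ligand through which much of the anabolic action of PTH on bone is thought to run, was lower with PTH on 2 of its 3 probes, without passing the threshold. The gene lies on chromosome 10, 87858265-87937047. Probe ILMN_1225565, its brightest, read 8.20, 8.26 and 7.91 in control tubes and 7.83, 7.31 and 7.38 with PTH. Probe ILMN_2769884 read 6.77, 6.51 and 6.78 for control and 6.03, 6.24 and 6.19 for PTH. Both sets of PTH arrays lay below all control arrays, as 10.5% of all probes tested did. The differences were -0.61 ± 0.18 (SE, limma, adjusted p = 0.166) and -0.53 ± 0.14 (SE, limma, adjusted p = 0.122). With quantile normalization alone, with no background correction, the brightest probe gave -0.43 and passed at an adjusted p of 0.0258 (limma), below the fold change minimum. The third probe, ILMN_2647594, read 5.71, 5.95 and 5.48 for control and 5.80, 5.73 and 5.39 for PTH. Here the groups overlapped, and the difference was -0.070 ± 0.17 (SE, limma, adjusted p = 0.897). Its ratio to the brightest probe separated the groups (log2 difference 0.54 between the ratios, exact two-sided permutation p = 0.1, adjusted 0.225). In the signals as deposited the groups overlapped on both of the separated probes, through PTH replicate 3. ILMN_1225565 read 329, 403 and 332 for control and 271, 251 and 333 for PTH, and ILMN_2769884 read 184, 195 and 202 for control and 144, 167 and 200 for PTH, so their separation appeared after normalization. The files do not say which transcripts of Igf1 each probe reads.

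Igf2, the other ligand, was close to background. Its single probe, ILMN_2597769, read 5.52, 5.23 and 5.42 in control tubes and 4.45, 5.43 and 5.23 with PTH, and it was above background on 3 control arrays and on 2 PTH arrays. PTH replicate 1 was the lowest array, PTH replicate 2 lay among the control arrays and PTH replicate 3 just below the lowest of them. The difference was -0.36 ± 0.25 (SE, limma, adjusted p = 0.583). It was -0.063 without PTH replicate 1 and -0.56 without PTH replicate 2.

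Igf1r, which encodes the signaling receptor, lies on chromosome 7, 67952257-68233668. Its single probe, ILMN_1239663, read 6.52, 6.24 and 6.28 in control tubes and 5.63, 6.002 and 5.73 with PTH. Each PTH array lay below each control array, the nearest being PTH replicate 2 and control replicate 2. The difference was -0.56 ± 0.15 (SE) and missed the threshold (limma, adjusted p = 0.134). With quantile normalization alone it was smaller, -0.23 (limma, adjusted p = 0.180). As deposited, before normalization, the signals were 172, 179 and 168 for control and 133, 155 and 170 for PTH, and the groups overlapped through PTH replicate 3.

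For Igf2r, which encodes the receptor that clears IGF2, the probes differed in sign. ILMN_2931095 read 8.73, 8.69 and 8.53 for control and 8.59, 8.56 and 8.30 for PTH, a difference of -0.17 ± 0.14 (SE, limma, adjusted p = 0.644). ILMN_2931096 read 8.12, 7.77 and 8.13 for control and 8.07, 8.14 and 8.46 for PTH, a difference of 0.21 ± 0.17 (SE, limma, adjusted p = 0.621). The groups overlapped on both probes, and averaging the probes gave a difference of 0.024.

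**Figure D3:**
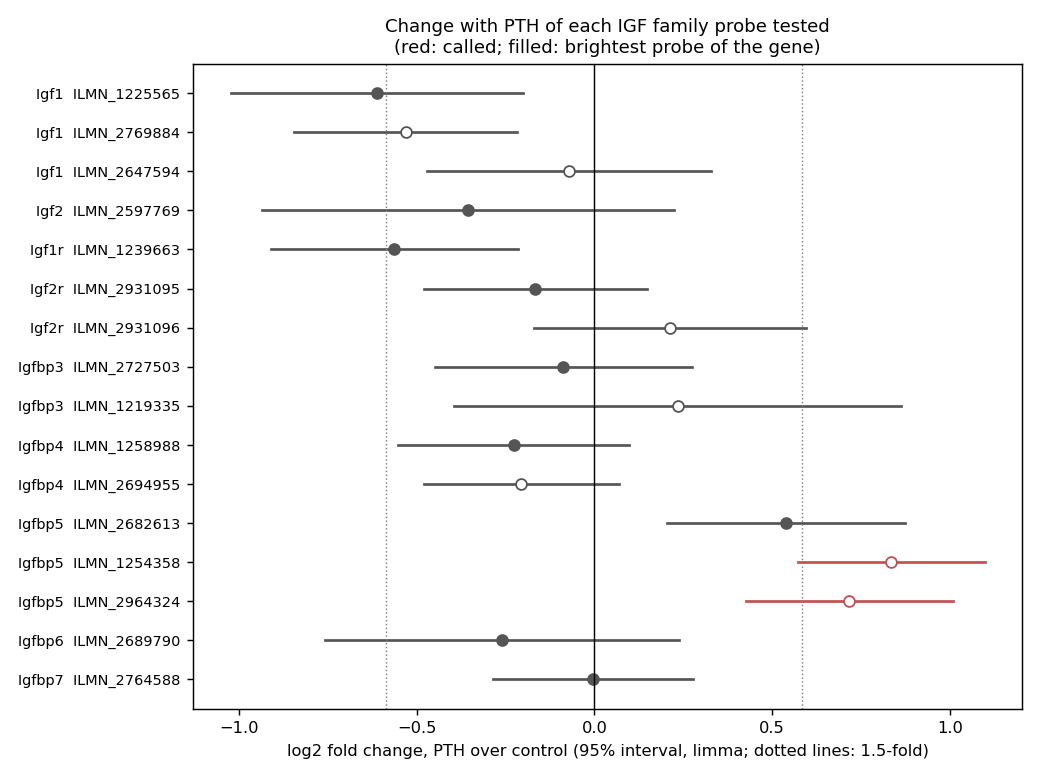
Difference between PTH and control (log2) for each tested probe of the family, with bars for the 95% interval, filled for the brightest probe of a gene, red where called, and dotted lines at 1.5-fold. The 2 called Igfbp5 probes (0.83 and 0.72) stand to the right of 0, and the probes of Igf1 and Igf1r that separated the groups lie between -0.61 and -0.53.

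Among the other binding proteins, Igfbp7, Igfbp4, Igfbp3 and Igfbp6 were measured and Igfbp2 was not above background. Igfbp7, a secreted protein with low affinity for IGFs, read 13.63, 13.56 and 13.77 in control tubes and 13.72, 13.61 and 13.62 with PTH with probe ILMN_2764588. The arrays of both groups were mixed, and the difference was -0.0043 ± 0.12 (SE), with a 95% interval of -0.29 to 0.28 (limma, adjusted p = 0.993). The other 2 probes of Igfbp7, ILMN_2634286 and ILMN_2762029, were not well above background on any array.

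Igfbp4, which mainly inhibits IGF action until the protease PAPPA cuts it, had a pair of probes that read slightly lower with PTH. ILMN_1258988 read 9.94, 9.76 and 9.68 for control and 9.60, 9.39 and 9.71 for PTH, and ILMN_2694955 read 8.91, 9.05 and 8.89 for control and 8.79, 8.76 and 8.69 for PTH. The groups overlapped on the former probe, through PTH replicate 3, and did not on the latter. The differences were -0.23 ± 0.14 (SE, limma, adjusted p = 0.523) and -0.21 ± 0.12 (SE, limma, adjusted p = 0.490).

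Igfbp3 encodes the main carrier of IGFs in serum. Its probe ILMN_2727503 read 6.37, 6.49 and 6.65 for control and 6.17, 6.60 and 6.49 for PTH, and ILMN_1219335 read 5.91, 5.96 and 6.84 for control and 6.42, 6.20 and 6.78 for PTH. On both probes the groups overlapped, with differences of -0.087 ± 0.16 (SE, limma, adjusted p = 0.855) and 0.23 ± 0.27 (SE, limma, adjusted p = 0.754). Igfbp6, which binds IGF2 in preference to IGF1, read 5.45, 6.18 and 5.54 for control and 5.41, 5.30 and 5.69 for PTH on ILMN_2689790, again with overlap. The difference was -0.26 ± 0.21 (SE, limma, adjusted p = 0.650). It was -0.031 without control replicate 2, the highest array, and -0.40 without control replicate 1.

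Igfbp2, the neighbor of Igfbp5 on chromosome 1, was not well above background on any of the 6 arrays with either probe, ILMN_1236788 or ILMN_2930897, and no fold change is given for it. Its deposited signals lay between 97.9 and 115, and the lowest detection p among the 12 readings was 0.525. In order of the log2 difference by brightest probe, the family ran from Igf1 (-0.61) and Igf1r (-0.56) through Igf2 (-0.36), Igfbp6 (-0.26), Igfbp4 (-0.23), Igf2r (-0.17), Igfbp3 (-0.087) and Igfbp7 (-0.0043) to Igfbp5 (0.54). Differences between neighbors in this order were not tested, and their standard errors of 0.12 to 0.25 exceeded most of the steps between them.

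**Figure D4:**
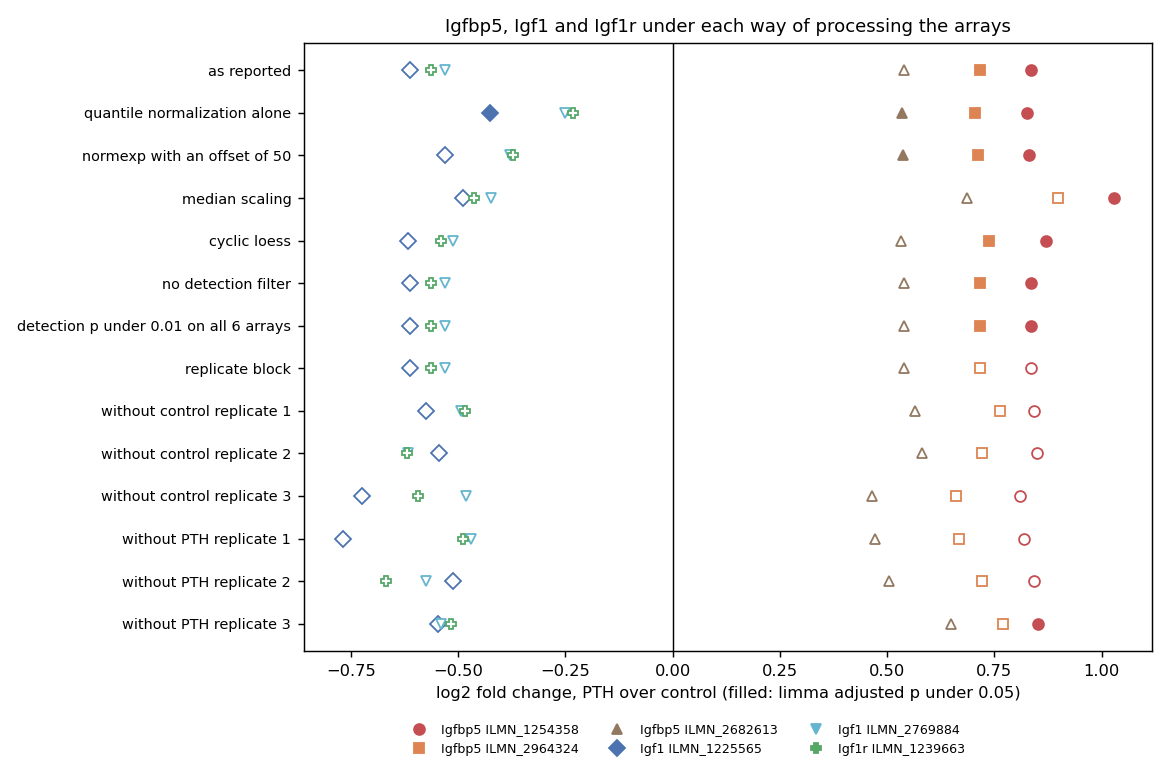
Difference between PTH and control (log2) of the 3 Igfbp5 probes, 2 Igf1 probes and the Igf1r probe under each way of processing the arrays, 1 row per setting, filled where the limma adjusted p was under 0.05. Under each setting drawn the Igfbp5 probes lie above 0 and the Igf1 and Igf1r probes below 0. The filled Igfbp5 points become open with the replicate block and in most rows that leave out an array. That of ILMN_2964324 is also open with median scaling.

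Normalization set the level of all of these differences, since the median difference of all genes was 0.12 with median scaling, against 0.0053 with quantile normalization. Relative to the median of 0.12 the Igfbp5 probes stood at 0.91, 0.78 and 0.57 (ILMN_1254358, ILMN_2964324 and ILMN_2682613), the brightest Igf1 probe at -0.60 and Igf1r at -0.58. Before that median was taken off, Igfbp7 gave 0.16 and the ILMN_2727503 probe of Igfbp3 gave 0.0094 under median scaling. Both were opposite in sign to their values after quantile normalization. Relative to the median Igfbp7 stood at 0.044, still opposite in sign, and the Igfbp3 probe at -0.11, of the same sign. With median scaling 1 Igfbp5 probe was called, ILMN_1254358, at an adjusted p of 0.0397 (limma). In that fit all tested family probes had the same SE, 0.285, so this p does not measure the probe's own spread. Differences of weak probes also depended on the background correction. With quantile normalization alone Igf1r gave -0.23, the Igf1 probe ILMN_2769884 -0.25, Igf2 -0.14 and Igfbp6 -0.094. The Igfbp5 probes gave 0.82, 0.71 and 0.53 (ILMN_1254358, ILMN_2964324 and ILMN_2682613).

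The wider IGF pathway was described with a fixed list of 71 genes, all on the array and none of them a member of the family. It held insulins and further binding proteins, proteases and their inhibitors, insulin receptors, receptor adaptors, the PI3K and AKT and the mTOR branches, the growth hormone axis, IGF2 messenger RNA binding proteins and genes with a related binding domain. Of the 71 genes 48 were tested and none was called in either direction by limma, beside 1.73% of all genes, and 10 had an unadjusted p under 0.05, beside 14.9%. The arrays did not overlap for 16 of the 48 genes (7 higher and 9 lower with PTH), beside 21.9%. The median difference was -0.036, with 20 genes above 0 and 28 below.

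None of the 5 insulin and further binding protein genes (Ins1, Ins2, Igfbp1, Igfals and Igfbpl1) was above background on enough arrays to be tested, and neither was Insr or Insrr. All 5 proteases and inhibitors were tested (Pappa, Pappa2, Stc1, Stc2 and Htra1), with differences from -0.55 to 0.37. Among 7 tested adaptors differences ran from -0.18 to 0.60 (Grb14, whose groups overlapped). They ran from -0.42 to 0.38 among 15 tested genes of the PI3K and AKT branch, and from -0.30 to 0.40 among 10 of the mTOR branch. The 6 tested genes of the growth hormone axis lay between -0.58 and 0.49. The lowest of them was Stat5a, which was above background on only 3 arrays and whose groups overlapped. The single tested gene of the messenger RNA binding group stood at -0.29, and the 4 genes with a related domain lay between -1.21 and 0.52. No group held a called gene.

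The 6 pathway genes with the lowest adjusted p all separated the groups. Their selection by p-value on the same arrays favors this, so it is no further result. Esm1, an endothelial proteoglycan with a binding protein domain, read 10.03, 10.01 and 10.10 for control and 10.42, 10.64 and 10.65 for PTH, a difference of 0.52 ± 0.12 (SE, limma, adjusted p = 0.0984). Kazald1, a bone protein with a like domain, read 5.91, 5.89 and 6.70 for control and 4.46, 4.94 and 5.49 for PTH and was above background on 4 arrays, with a difference of -1.21 ± 0.31 (SE, limma, adjusted p = 0.119). It was called with an offset of 50 and with median scaling. Ghr, the growth hormone receptor, read 7.70, 7.92 and 7.39 for control and 8.23, 8.19 and 8.07 for PTH, a difference of 0.49 ± 0.16 (SE, limma, adjusted p = 0.209). Pdpk1, the kinase that activates AKT (-0.42, limma, adjusted p = 0.162), Stc2, an inhibitor of the protease that cuts IGFBP4 (-0.55, limma, adjusted p = 0.191), and Rheb, the activator of mTOR (0.36, limma, adjusted p = 0.210), did not pass either.

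**Figure D5:**
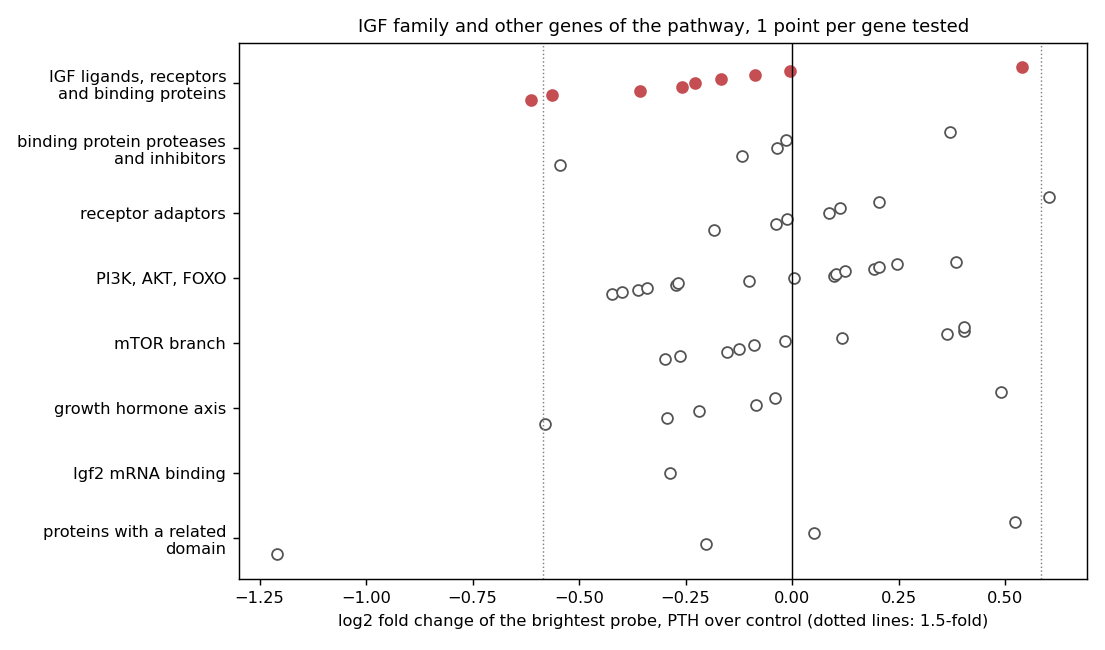
Difference between PTH and control (log2) of the 9 tested family members and of the 48 tested genes of the other pathway lists, grouped by role, with a point per gene by its brightest probe (filled for the family, vertical offsets within a group only separate points) and dotted lines at 1.5-fold. No point is a called gene, and Igf1 (-0.61), Kazald1 (-1.21) and 1 receptor adaptor (0.60) lie beyond 1.5-fold.

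Markers of several cell types also differed between the groups. In bulk tissue fewer cells of a type and less RNA per cell cannot be told apart. Over all genes tested 1.04% were called lower and 0.685% higher, to be read beside the counts of each list below. Of 13 osteocyte and osteoblast markers 11 were tested, 4 were called lower and none higher, and the median difference was -0.88. Pdpn went the other way, with every PTH array above every control array (0.70, limma, adjusted p = 0.0560), and was not called. The summed normalized signal of the tested markers was 34269 to 36348 on control arrays and 21320 to 23117 on PTH arrays (Fgf23 and Runx2 were not above background on any array). Of 6 osteoclast markers 4 were tested and 2 were called higher (Calcr and Atp6v0d2 were not above background on any array). The sum of the 4 was 8118 to 9368 on control arrays and 10436 to 13751 on PTH arrays. Most of this sum was Ctsk, which was not called (0.36, limma, adjusted p = 0.328). Of 6 tendon and fibroblast markers 3 were tested and Dcn, a matrix proteoglycan, was called higher (0.83, limma, adjusted p = 0.0181), with a sum of 1806 to 1914 on control and 2697 to 3027 on PTH arrays (Dcn alone was higher, Scx at -0.13 and Cd34 at -0.054 did not pass, the median of the 3 was -0.054, and Dpt and Pi16 were not above background on any array). Sums of neutrophil markers went from 50605-51436 to 32906-37393 (3 of 6 tested called lower) and of red cell markers from 8563-10017 to 2361-2629 (2 of 3 called lower). Most of the neutrophil sum was S100a8 (-0.43, limma, adjusted p = 0.192) and S100a9 (-0.59, limma, adjusted p = 0.144), neither of them called. S100a8, S100a9, Hba-a1 and Hbb-b1 were above background on all 6 arrays, so the tubes still held RNA of neutrophil and red cell markers. Cartilage markers had 1 of 4 tested genes called lower, Acan. It was above background on 3 arrays, the least the filter allows, and the filter favors such a gene being high in 1 group. Acan read 5.64, 5.71 and 5.85 for control and 4.83, 4.54 and 4.67 for PTH, where it was near background. None was called among 4 muscle, 7 endothelium, 6 macrophage and 4 fat markers tested. The muscle genes Acta1 and Ckm were not above background on any array. The part of these lists in the differences of Igfbp5, Igf1 and Igf1r was not tested.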

How the data were processed

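RNA of cortical bone tubes was hybridized to Illumina mouse bead arrays, 3 for control and 3 for PTH, grouped by the sample labels. The authors deposited the linear signal intensity of 45281 probes, not normalized, and a detection p-value for each, from GenomeStudio per the labels. Background correction used the detection p-values (normexp, offset 16) and was followed by quantile normalization and log2 (neqc of limma 3.58.1, R 4.3.3). Probes with a detection p under 0.05 on at least 3 arrays were tested with lmFit and eBayes, two-sided, with Benjamini-Hochberg adjustment over 16214 probes. A gene was called by its brightest probe at an adjusted p under 0.05 and a fold change of at least 1.5. The procedure was tested on simulated data. The family and the lists of pathway genes and cell type markers were chosen with earlier results of these data known. All members were named with all probes, together with the 6 pathway genes of lowest adjusted p. The genes nearest in profile were to be named for each called member, and no member was called. Symbols are those of the table. Promoters came from the RefSeq table (GRCm38.p6). Probe sequences were not used here. Alternatives were an offset of 50, quantile normalization without background correction, cyclic loess, median scaling, a replicate block, detection at 0.01 on all 6 arrays or no such filter, each array left out, other thresholds and the mean of all probes. Calling a gene by any of its probes was added after the data were seen. The differential score and quantile values of the paper's array software were not analysed here.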

Additional observations from a re-analysis of the deposited data

How the results depend on the processing

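Among the log2 differences of the tested family probes, recomputed under each alternative, 186 kept their direction and their side of the threshold, 14 lost and 4 gained significance, and 11 changed sign. The family held no called gene. It held 1 with the mean of all tested probes (Igfbp5), where 263 genes of the whole array were called (114 higher). It held 1 when any called probe counted (Igfbp5, chosen after seeing the data), beside 233 genes of the whole array. Another setting put an unadjusted p under 0.05 in place of the adjusted p and kept the 1.5-fold minimum. With it the family held 1 (Igf1, lower). Of the family's probes 2 were called, but 1 with median scaling, 0 with the replicate block and 0 to 1 with 1 array left out. The other pathway genes had 0 calls. They had 1 with an offset of 50, 1 with median scaling and 1 with the unadjusted p and 1.5-fold limits, each time Kazald1. Over all genes the 207 calls became 104 with median scaling and 44 with the replicate block. They became 622 with the unadjusted p and 1.5-fold limits, and 50 to 95 with 1 array left out. The labels do not say whether replicate numbers pair control with PTH arrays. Deviations of same-numbered arrays correlated at 0.067, 0.064 and 0.27, so not every pair was over 0.1, and the arrays numbered 3 correlated best with each other while those numbered 1 and 2 did not. The share of probes above background was close between arrays of one number (34.8% and 34.2%, 36.3% and 36.1%, 38.4% and 38.4%). A pairing is therefore neither shown nor excluded, and the main fit has no block. The adjusted p of the called Igfbp5 probes with the number as a block was 0.0661 and 0.0799 (limma), with neither called. Igfbp7 changed sign with median scaling (0.16), with cyclic loess (0.0060) and without control replicate 3, PTH replicate 2 or PTH replicate 3 (range -0.046 to 0.054 with 1 array left out). The brightest Igfbp3 probe did so with median scaling (0.0094), the mean of probes (0.074) and without PTH replicate 1 (range -0.18 to 0.040), Igf2r with the mean of probes (0.024), and the third Igf1 probe without control replicate 2 or PTH replicate 3 (range -0.18 to 0.049). The cause of these changes was not tested. The slide of each array is not named in the sources used here, and a slide block was not run. Uncalled differences also moved by over 1.5 times from the main fit with 1 array left out. They lay between -0.56 and -0.063 for Igf2, -0.40 and -0.031 for Igfbp6, and -0.30 and -0.14 for the brightest Igfbp4 probe. The brightest Igf2r probe lay between -0.22 and -0.073, its other probe between 0.092 and 0.29, and the second Igfbp3 probe between 0.073 and 0.53. Probes near background, such as Igf2, allow no statement on small differences.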
